A study of Mus musculus with 2 samples.

Results

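Plasmacytoid dendritic cells (pDC) are the circulating dendritic cells that sense viral and self nucleic acids in endosomes and can release type I interferon in large amounts. Their identity rests on the E protein TCF4 with IRF8, SPIB, RUNX2 and BCL11A, and in the mouse they are recognised by the receptors Siglec-H and BST2 (CD317). In liver they lie among the sinusoidal immune cells and have been studied in viral and autoimmune hepatitis. The cells described here are those that the deposited cell table names pDC, 265 of 11929 named liver immune cells, with 46 of 4647 cells from TG mice and 219 of 7282 cells from WT mice.

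All cells were CD45+ liver cells of C57BL/6 mice aged 10 weeks per the labels, although the study describes younger mice in its methods. TG mice carry the transgene dnTGFβRII. It encodes a TGF-β receptor II of human origin that blocks signalling as a dominant negative, and the CD4 promoter of the mouse drives it. The strain is used to model primary biliary cholangitis, an autoimmune disease of the small bile ducts. The WT group was wild type. TG cells were captured in 1 pool together with cells of IFN-γ ARE-Del-/- mice, and WT cells in another pool together with cells of P40-/-IL-2Ra-/- mice, so 1 library stood for each genotype. Animals within a genotype were not told apart in the cell table. With no replicate, no test was made between genotypes, so the effects of genotype and of the capture cannot be told apart. Intervals are at 95% and cover counting error only.

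Transcripts were counted as unique molecular identifiers (UMIs) together with 49 oligonucleotide-tagged surface antibodies. The libraries held 18517911 UMIs over the named TG cells and 22235398 over the named WT cells, with medians of 3301 and 2656 UMIs per cell. The pDC were deeper than this, with medians of 6024 UMIs and 2447 genes per cell in TG and of 4651 UMIs and 2033 genes per cell in WT. Summed over cells, the pDC profiles held 281228 UMIs in TG and 1051294 in WT, and levels are given below as UMIs per 1000000 UMIs of such a profile (CPM). A single UMI stood for 3.56 CPM in the TG profile. The pDC of both libraries came from a single cluster of the authors, number 14. The libraries shared 36 cell indices over all named cells and 0 among pDC.

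The label pDC was checked against its markers. All 4 of Siglech, Bst2, Tcf4 and Irf8 were found in 46 of 46 TG cells (100%, interval 92.3 to 100) and in 218 of 219 WT cells (99.5%, 97.5 to 100). A Siglech UMI was present in 0.749% of TG and 0.536% of WT mature B cells, and in 0.980% and 0.775% of the cells named Mono, whose median depths were 2927, 2046, 2619 and 1772 UMIs. Mature B cells (maturate b in the cell table, 1068 in TG and 1494 in WT) and Mono cells (204 and 258) served as the comparison classes. The name Mono went against the data. This class held 21350 (TG) and 10770 (WT) CPM of S100a8, 2857 and 2955 of the granulocyte receptor Csf3r and 2711 and 3089 of Cxcr2, but 21.7 and 40.1 of the monocyte chemokine receptor Ccr2. Macro cells (109 and 261), which held 558 and 564 of Ccr2 and 628 and 397 of Csf1r, were therefore set beside them, a choice made after the data were seen. The Macro class differed in makeup between the libraries. Its cells came from 2 clusters in TG and 3 in WT, and 10 macrophage markers summed to 75.03 (TG) and 1363 (WT) CPM in it, 10 NK cell markers to 3145 and 666 and 15 conventional dendritic cell markers to 9685 and 11420. The part of this makeup in its ratios of TG over WT was not tested.

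A caller of doublets marked 0 of 46 TG and 24 of 219 WT pDC (10.96%), against 0.818% and 3.25% of all named cells. Markers of other cells were present at low levels in both pDC profiles. The 16 B cell markers, all detected, summed to 2887 (TG) and 3205 (WT) CPM against 29500 and 27080 in mature B cells. The 12 T cell markers summed to 725 and 596, the 14 monocyte markers to 939 and 941 and the 10 neutrophil markers to 341 and 169. Of the 10 macrophage markers 6 had no UMI in either profile, among them C1qb, and the rest summed to 0 and 5.71. The 10 NK cell markers summed to 537 and 876, of which Ccl5 gave 345 and 647. At least 2 UMIs of 5 T cell genes were held by 12 TG and 37 WT pDC, of 8 B cell genes by 11 and 19, and of 7 monocyte genes by 13 and 75. At least 2 UMIs of the 9 NK cell markers other than Ccl5 were held by 14 and 24. The part of these transcripts in the differences between TG and WT pDC was not tested beyond the values given below. Removal of the cells that held T, B or monocyte genes left 21 TG and 110 WT pDC, and removal of those that held NK cell markers left 32 and 195. The 7 monocyte genes include Ccr2, which had 44 UMIs in TG and 225 in WT pDC, so a cell could be removed for Ccr2 alone. Whether those transcripts were the cells' own was not tested, and the limit of 2 UMIs was not scaled to depth. Some ratios and counts in such subsets are given below, and they rest on fewer cells.

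The 5 regulators that define the lineage differed by less than 2-fold between TG and WT pDC. Irf8, which pDC share with the classical dendritic cells that cross-present, stood at 3695 CPM in TG and 3667 in WT, with a log2 ratio of TG over WT of 0.01 (interval -0.09 to 0.11). Tcf4, the E protein without which pDC do not form, stood at 2062 in TG and 1827 in WT (0.17, 0.04 to 0.31), with ratios of 0.08 (-0.06 to 0.22) without doublets and 0.37 (0.17 to 0.56) in the pDC without T, B or monocyte genes. Spib, an ETS factor, stood at 544 and 600, a ratio whose interval held 0 (-0.14, -0.41 to 0.12). Runx2, which controls exit from bone marrow, was at 1095 and 1345 (-0.30, -0.48 to -0.12, but 0.04 at equal depth, with every cell thinned to 1000 UMIs), and Bcl11a, which acts upstream of Tcf4, was at 530 and 683 (-0.37, -0.63 to -0.11). The ratio of Bcl11a was -0.07 (-0.46 to 0.30) in the pDC without T, B or monocyte genes. In Mono cells Runx2 was at 102 and 91.7. Runx2 was at 4.16 and 13.1 in mature B cells, while Spib and Bcl11a were also read in mature B cells, at 279 and 265 and at 301 and 332.

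Transcripts named for other lineages differed in how often they were read in pDC. Ighm, the constant region of IgM, gave 1394 CPM in TG and 1603 in WT, with a UMI in 97.8% and 99.1% of pDC. At equal depth Ighm was found in 69.6% and 75.3% of pDC, against 15.2% and 12.8% of Mono cells and 24.8% and 18.4% of Macro cells. Cd79a, a chain of the B cell receptor complex, stood at 96.0 and 169 CPM with a UMI in 34.8% and 8.68% of the pDC, and 49.4% of its WT UMIs lay in 3 cells. At equal depth Cd79a was found in 8.70% and 3.20% of pDC, near the 7.84% and 2.71% of Mono cells and the 7.34% and 3.07% of Macro cells. Its level was 195 and 103 CPM in Mono cells and 53.8 and 81.3 in Macro cells. The B cell marker Ms4a1 had a UMI in 6.52% and 5.02% of pDC and in 4.59% and 4.22% of Macro cells. Whether the transcripts of Cd79a and Ms4a1 in pDC came from other cells was not tested. Dntt, the terminal transferase of lymphoid precursors, gave 171 and 220 CPM and was at 2.68 and 0 in mature B cells. Of the genes that mark conventional dendritic cells, Clec9a (128 and 172) and Cd209a (242 and 267) were read in pDC, whereas Xcr1 had 0 UMIs in both libraries and Zbtb46 and Batf3 had 0 in TG and 3 each in WT. In Macro cells Xcr1 stood at 126 and 206, Zbtb46 at 44.0 and 69.2 and Batf3 at 81.5 and 107. Of the genes of dividing cells, Mki67 had a UMI in 4 of 46 TG pDC (8.70%, 2.42 to 20.8) and in 5 of 219 WT pDC (2.28%, 0.745 to 5.25), beside 3.65% and 1.27% of mature B cells. Top2a had one in 2 TG pDC (4.35%, 0.531 to 14.8) and in 6 WT pDC (2.74%, 1.01 to 5.87), beside 4.59% and 2.54% of mature B cells.

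**Figure D1:**
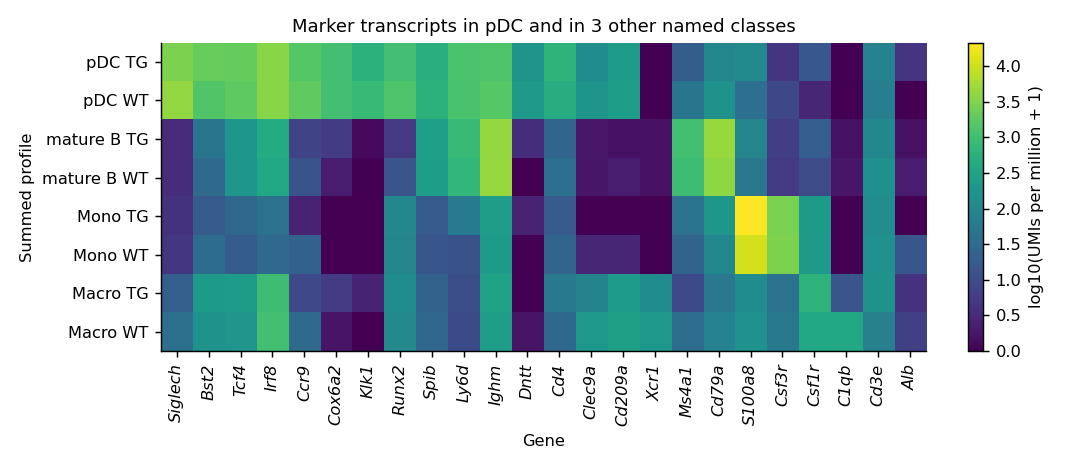
Heat map of log10(CPM + 1) for 24 marker transcripts (columns) in the summed profiles of pDC, mature B, Mono and Macro cells of TG and WT mice (rows), 1 library per genotype. Siglech, Klk1 and Cox6a2 are bright in both pDC rows and dark in the mature B and Mono rows, Ighm is bright in pDC and mature B rows, and S100a8 and Csf3r are brightest in the Mono rows.

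The genes that set pDC apart were searched in both libraries. The names of the classes came from clusters built on these transcripts and antibodies, so what follows describes the classes and is no test. A gene was counted when it differed by at least 4-fold with an interval that left out 0 in both libraries. Over mature B cells 451 of 9943 genes (4.54%) were higher in pDC by this rule and 183 (1.84%) were lower. Over Mono cells 919 of 7165 (12.8%) were higher and 517 (7.22%) lower, and with TMM scaling these became 442 and 815, since the median of all genes in that comparison moved by -0.75 in TG and -0.66 in WT. Over Macro cells the counts were 220 (2.69%) and 267 (3.27%) of 8170.

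Of 36 genes of a pDC identity list all had UMIs in pDC, and 29 of 36 were higher by that rule over mature B cells, 30 of 35 over Mono cells and 26 of 35 over Macro cells, with 0 lower in each. The 15 genes that led pDC over both mature B and Mono cells were Siglech, Klk1, Atp2a1, Cox6a2, Cd209d, Upb1, Ccnd1, Smim5, Cd209a, Slamf9, Ccr9, Zc3h12c, Cd300c, Ppfia4 and Gm21762. Siglech, a sialic acid binding receptor (chr7:55768178-55778925 on GRCm38, + strand), gave 3022 CPM in TG pDC and 4299 in WT pDC. That was 1270-fold and 1717-fold its level in mature B cells, 905-fold and 1125-fold its level in Mono cells, and 154-fold and 112-fold its level in Macro cells. Klk1, a tissue kallikrein protease (chr7:44225360-44229618, + strand), gave 161 UMIs in TG pDC and 877 in WT pDC. The mature B profiles held 1 and 0 UMIs of it and the Mono profiles 0 and 0, so its level in WT was at least 999.9-fold higher than in mature B cells and at least 146-fold higher than in Mono cells, with 3 UMIs in the empty profile as the limit. Cox6a2, a subunit of cytochrome c oxidase known from striated muscle (chr7:128205435-128206387, - strand), stood at 1088 and 1069 CPM. It was at 4.76 and 1.11 in mature B cells and had no UMI in Mono cells, at least 217-fold (TG) and 187-fold (WT) lower there. Ccr9, the receptor of the gut and thymus chemokine CCL25 (chr9:123678439-123784330, + strand), gave 1529 and 1902 CPM against 6.84 and 12.2 in mature B cells.

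Other leading genes belong to metabolism and the cell surface. Ccnd1, cyclin D1, stood at 1173 and 1242 CPM in pDC and at 1.78 and 1.95 in mature B cells, but also at 374 and 419 in Macro cells. Atp2a1, a calcium pump of the sarcoplasmic reticulum, gave 228 and 219, and Upb1, an enzyme of pyrimidine breakdown, 309 and 336. Cd209d, a C-type lectin, had 65 and 210 UMIs in pDC and 0 in mature B and Mono cells of both libraries. The 5 lowest genes against both classes were Dok3, Plk2, E2f2, AB124611 and Gadd45g. Dok3, an adaptor that dampens B cell receptor signals, had 2 and 4 UMIs in pDC against 127 and 93.2 CPM in mature B cells and 167 and 145 in Mono cells.

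TCF4 binds E-boxes, and the promoters of the leading genes were read on both strands for CAGGTG, whose other strand reads CACCTG, and for the E-box CAGCTG, which is its own complement. Matches to these forms cannot overlap each other. RefSeq windows of GRCm38.p6, 250 bases before each annotated start, were at hand for 11 of the 15 genes, with 13 windows in all. Of these 8 (61.5%) held at least 1 such E-box, against 9113 of 32851 windows of all genes (27.7%). CAGGTG alone was in 38.5% against 17.2%, and CAGCTG in 23.1% against 13%. Some genes have more than 1 window, and a match is a run of letters and not a site shown to be bound. The windows of 3 leading genes are shown because each gene was far higher in pDC than in the classes compared and each window holds a single match to the forms searched, given in capitals. E-boxes of other letters were not searched and are not marked. They lie at chr7:55767934-55768183, chr7:44225110-44225359 and chr9:123766961-123767210, all on the + strand, and the last lies inside the longer span that GENCODE gives to Ccr9.
Siglech: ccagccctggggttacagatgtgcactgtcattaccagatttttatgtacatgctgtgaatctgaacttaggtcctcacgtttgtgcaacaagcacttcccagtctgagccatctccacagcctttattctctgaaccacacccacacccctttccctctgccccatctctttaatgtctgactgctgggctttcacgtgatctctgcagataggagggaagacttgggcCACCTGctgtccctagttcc
Klk1: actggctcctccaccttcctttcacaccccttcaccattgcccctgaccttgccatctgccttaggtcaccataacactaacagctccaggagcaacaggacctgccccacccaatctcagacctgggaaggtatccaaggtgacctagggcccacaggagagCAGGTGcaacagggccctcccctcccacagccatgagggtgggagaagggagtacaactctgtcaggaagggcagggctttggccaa
Ccr9: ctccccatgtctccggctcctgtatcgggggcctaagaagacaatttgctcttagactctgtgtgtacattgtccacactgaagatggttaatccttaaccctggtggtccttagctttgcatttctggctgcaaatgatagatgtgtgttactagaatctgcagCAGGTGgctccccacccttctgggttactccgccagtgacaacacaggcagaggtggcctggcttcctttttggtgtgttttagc

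The surface antibodies of pDC included CD45R, CD4 and CD44 at high shares, and B cell proteins at low shares. CD45R (B220) took 15.04% of the antibody UMIs of TG pDC and 13.9% of those of WT pDC, against 12.3% and 11.8% in mature B cells and 0.714% and 0.703% in Mono cells. By median normalised value its order against mature B cells turned in both libraries (-0.11 in TG and -0.17 in WT). CD4 took 15.1% and 13.02%, against 0.478% and 0.576% in mature B cells and 1.04% and 0.415% in Mono cells. CD44, the hyaluronan receptor, was at 31.0% and 29.0% against 2.08% and 2.89% in mature B cells. The B cell proteins IgD (1.56% and 1.93%), IgM (1.51% and 2.76%) and CD23 (0.756% and 0.477%) were low on pDC, and mature B cells held between 4.81% and 27.8% of their antibody UMIs on each of them. Ighm, the transcript behind IgM, was nonetheless read in nearly every pDC. CD200 and the integrin chain CD49d were higher on pDC than on both classes, at 6.94% and 9.20% and at 5.54% and 6.37%. CD11c (0.904% and 1.51%) and the signal regulatory protein CD172a (1.28% and 1.22%) were above mature B cells, and CD9, CD24, CD41 and CD16/32 were below Mono cells.

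Several antibodies differed between TG and WT pDC. CD71, the transferrin receptor, took 0.948% of antibody UMIs in TG and 0.578% in WT, a log2 ratio of 0.72 (0.58 to 0.85), and the median normalised value per cell was 1.25 in TG and 0.73 in WT. In mature B cells CD71 was at 0.0717% and 0.0814%. CD11c was lower on TG pDC (log2 ratio -0.74, -0.86 to -0.61) and by a like amount on TG mature B (-0.57), Mono (-0.76) and Macro cells (-0.65). CD24 was lower on TG pDC (-2.06, -2.41 to -1.73) and by a like amount on TG mature B cells (-2.19), with ratios of -0.32 in Mono and -1.57 in Macro cells. CD4 differed little (0.21, 0.18 to 0.25).

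**Figure D2:**
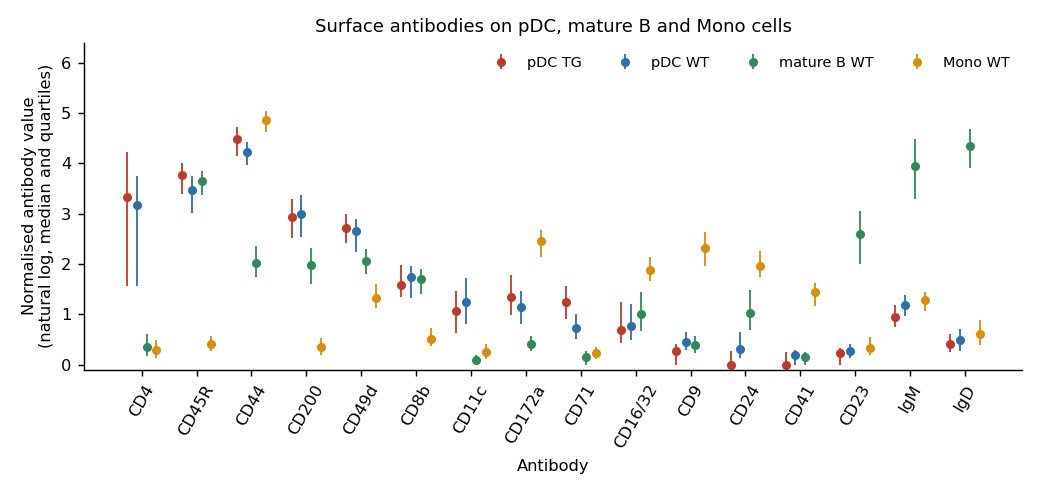
Deposited normalised antibody values (natural log of centred ratios, y axis) for 16 antibodies (x axis), with points at the median and bars from the lower to the upper quartile of cells for TG pDC, WT pDC, WT mature B and WT Mono cells. CD4, CD44 and CD200 lie higher on pDC than on mature B cells, IgD and IgM lie far lower, and CD71 has a median of 1.25 on TG pDC and 0.73 on WT pDC.

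The share of pDC among the named liver immune cells was lower in the TG library. TG had 46 of 4647 named cells (0.990%, 0.726 to 1.32) and WT 219 of 7282 (3.01%, 2.63 to 3.43), a difference of -2.02 percentage points (-2.50 to -1.52) and a ratio of 0.329. Among the cells not named as T, NKT or NK cells the share was 2.62% (1.92 to 3.48) of 1757 cells in TG and 8.77% (7.69 to 9.95) of 2496 in WT. Without doublets the shares were 0.998% and 2.77%, a difference of -1.77 points (-2.25 to -1.28). Of the classes compared, Macro cells were also lower in TG and the others were higher. Mature B cells were 22.98% in TG and 20.5% in WT and Mono cells 4.39% and 3.54%, while Macro cells were 2.35% and 3.58%, a ratio of 0.654 beside 0.329 for pDC. These are shares of captured cells and carry no count per liver.

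**Figure D3:**
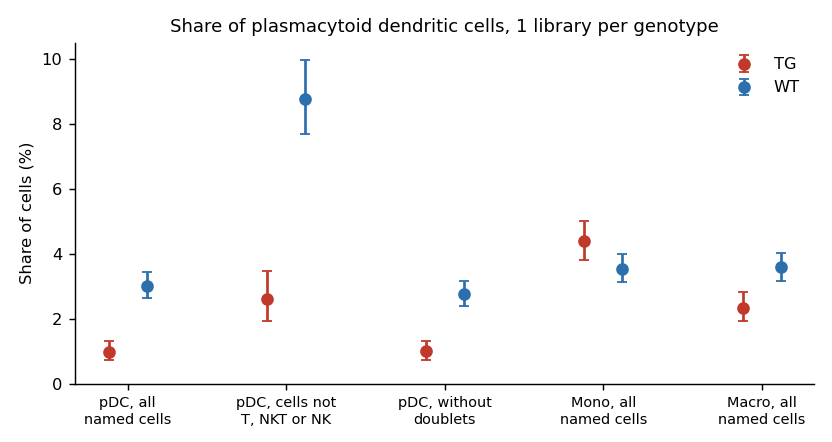
Share of cells in percent (y axis) in the TG library (red) and the WT library (blue) for pDC among all named cells, among cells not named as T, NKT or NK cells and after removal of doublets, and for Mono and Macro cells, with exact 95% binomial intervals as bars. The TG point lies below the WT point in each of the 3 pDC pairs and above it for Mono cells.

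Transcript levels in TG pDC were then compared with WT pDC. Of 8654 genes with at least 10 UMIs over both pDC profiles, 223 (2.58%) were at least 2-fold higher in TG with an interval that left out 0, and 143 (1.65%) were at least 2-fold lower. With a minimum of 50 UMIs the counts were 51 and 99, so the balance between higher and lower genes turned with the minimum. After every cell was thinned to 1000 UMIs the counts were 76 and 27, with 16 and 6 genes in common. Without cells that held T, B or monocyte markers they were 198 and 106, with 64 and 26 in common. In mature B cells 204 of 10785 genes (1.89%) were higher by the same rule and 269 (2.49%) lower, in Mono cells 226 (3.35%) and 268 (3.97%) of 6748, and in Macro cells 399 (4.12%) and 323 (3.34%) of 9683. By interval alone, with no minimum fold, 5.47% of genes were higher and 4.15% lower in TG pDC, 9.29% and 14.7% in TG mature B cells, 7.45% and 9.8% in Mono cells and 11.2% and 7.23% in Macro cells. The differences between classes in the ratio of TG over WT were not tested.

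Among the better covered genes the 10 with the highest ratios were Igha, S100a8, Fdft1, Scand1, Smim4, Fzr1, Adgre5, Fes, Prkcsh and Klf2. Igha, the constant region of IgA (chr12:113254830-113260236, - strand), had 55 UMIs in TG and 22 in WT pDC, or 196 and 20.9 CPM (log2 ratio 3.22, 2.49 to 4.01). The TG levels in Macro, mature B, NK and NKT cells were 251, 271, 335 and 298, against 24.3, 65.1, 31.7 and 24.7 in WT, and the class named "other" held 73340 and 39470. In CD8αβ T cells the order was the other way, at 274 and 1187. S100a8, a calgranulin of neutrophils, was at 114 and 37.1 (1.62, 0.90 to 2.33; 1.18, -0.28 to 2.53 in the pDC without T, B or monocyte genes) and at 93.4 and 50.3 in mature B cells. The Mono profiles held 21350 and 10770 of S100a8, and the part of RNA from other cells in the pDC values of both genes was not tested.

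The other genes of this group include a factor of trafficking and enzymes. Klf2, a zinc finger factor that controls lymphocyte traffic, had 289 and 447 UMIs, or 1028 and 425 CPM (1.27, 1.05 to 1.49), with a UMI in 80.4% and 64.4% of cells and, at equal depth, in 56.5% and 29.7%. It was also higher in TG mature B cells (0.77, 0.70 to 0.83). Adgre5, the adhesion receptor CD97, stood at 249 and 97.0 (1.36, 0.90 to 1.81), against 215 and 165 in mature B cells. Fdft1, squalene synthase of the sterol pathway, stood at 135 and 47.6 (1.51, 0.86 to 2.14), but its ratio was 0.61 (-0.61 to 1.71) in the pDC without T, B or monocyte genes. Fes, a myeloid tyrosine kinase, stood at 142 and 56.1 (1.34, 0.72 to 1.95). Scand1 was higher in TG in mature B (1.25), Mono (1.01) and Macro cells (1.23) as well as in pDC (1.49). Fzr1, an activator of the anaphase-promoting complex, had 21 and 30 UMIs (1.39, 0.51 to 2.24) and a ratio of -0.56 (-6.05 to 2.40) at equal depth.

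The 10 lowest were Socs3, Tent5c, B930036N10Rik, 2900055J20Rik, Shoc2, Inpp4b, Ing3, Cd28, Traf4 and Dcaf1. Socs3, the feedback inhibitor of STAT3 signalling by cytokines (chr11:117966079-117970047, - strand), had 0 UMIs in TG and 67 in WT pDC. No UMI was found in 46 TG cells (upper bound 7.71%) and at least 1 in 48 of 219 WT cells (21.9%, 16.6 to 27.99), and at equal depth the shares were 0% and 5.94%. With 3 UMIs set in place of 0 in TG, the level of Socs3 was 5.97-fold lower there, and the interval of its log2 ratio ended at -2.24. That end was -2.20 without doublets, -1.65 in the pDC without NK cell markers and -0.78 in those without T, B or monocyte genes. At equal depth it was 0.30, so that interval held 0. Socs3 was at 34.5 and 30.0 CPM in mature B cells (0.20, -0.19 to 0.59) and at 47.3 and 156 in Macro cells (-1.72, -2.34 to -1.16), whose makeup differed between the libraries.

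The remaining genes rested on 2 to 6 UMIs in TG. Tent5c, a poly(A) polymerase, had 2 and 60 UMIs (-3.005, -6.08 to -1.09), and Shoc2, a scaffold of the RAS and ERK pathway, 4 and 79 (-2.40, -4.31 to -0.99). Traf4, an adaptor of the TNF receptor family, had 5 and 64 (-1.78, -3.45 to -0.48), and Ing3, a subunit of a histone acetyltransferase complex, 6 and 88 (-1.97, -3.46 to -0.79). B930036N10Rik, annotated as antisense, had 6 and 135 UMIs, and without strand its reads cannot be told from those of the gene it overlaps. 2900055J20Rik had 5 and 100 UMIs in pDC. Cd28, a costimulatory receptor of T cells, had 5 and 73 UMIs and was lower in TG mature B cells too, at 5.35 and 42.8 CPM. In the pDC without T, B or monocyte genes the intervals of Shoc2 (-7.84 to 0.16), Traf4 (-3.69 to 0.35), Cd28 (-3.64 to 0.40), Dcaf1 (-4.78 to 0.35) and 2900055J20Rik (-7.90 to 0.09) held 0, and Inpp4b had no UMI in TG.

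**Figure D4:**
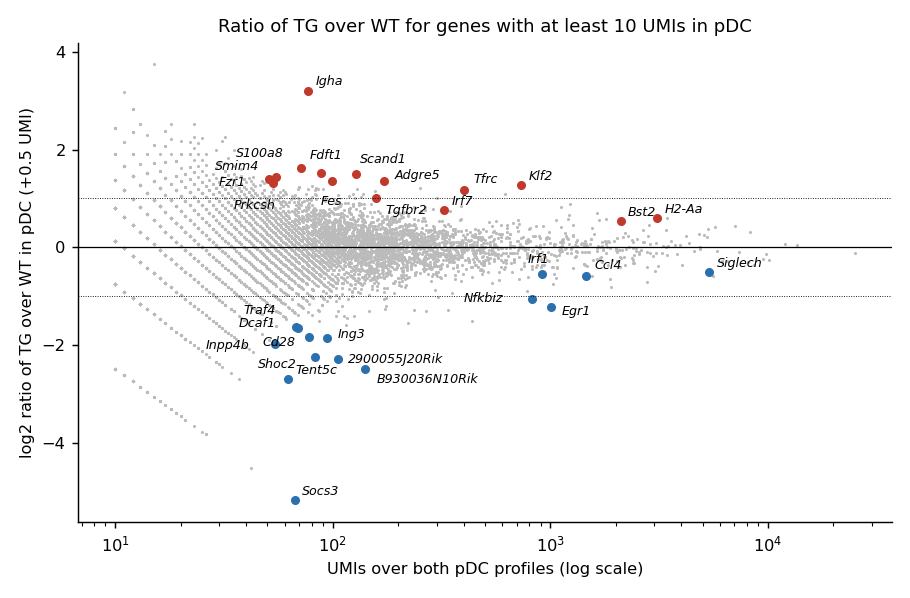
Log2 ratio of TG over WT in pDC with 0.5 UMIs added (y axis) against the UMIs of both pDC profiles on a log scale (x axis) for genes with at least 10 UMIs, with named genes in red (higher in TG) and blue (lower in TG) and dotted lines at a 2-fold ratio. The spread narrows as UMIs increase, Socs3 is the lowest point, and Siglech, Bst2, H2-Aa and Ccl4 lie within the 2-fold lines with over 1000 UMIs.

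Of 35 tested genes of the identity list 0 passed the 2-fold rule, beside 2.58% of all genes higher and 1.65% lower, and their median log2 ratio was 0.01, beside 0.05 over all genes. By interval alone 7 were higher and 6 lower, of the same 35 genes, beside 5.47% and 4.15% of all genes. Siglech was lower in TG (-0.51, -0.62 to -0.40), with quartiles over cells of 2262, 2846 and 4052 CPM in TG and of 3389, 4247 and 5508 in WT. The middle ranges of both groups overlap, and the TG median lies below the lower WT quartile. Bst2, a tetherin that rises with interferon, was higher in TG at 2084 and 1440 (0.53, 0.39 to 0.67), and it was higher in TG mature B cells too (0.66, 0.30 to 1.03). Klk1 (-0.54, -0.79 to -0.30) and Ccr9 (-0.32, -0.47 to -0.16) were lower, the latter with a ratio of -0.01 at equal depth. Klk1 passed the 2-fold rule in the pDC without T, B or monocyte genes (-1.24, -1.68 to -0.82) and in those without NK cell markers (-1.16, -1.52 to -0.81). Ly6c2 (0.26), Lair1 (0.31), Plac8 (0.23) and Smim5 (0.37) had intervals above 0, and Cybb, a subunit of the phagocyte oxidase, had one below it (-0.26, -0.41 to -0.11). In the pDC without T, B or monocyte genes each of these 5 intervals held 0, at ratios of 0.14, 0.14, 0.15, 0.44 and -0.19. Those of Lair1 and Smim5 also held 0 without doublets, and those of Ly6c2 (0.09), Smim5 (0.35) and Cybb (-0.13) in the pDC without NK cell markers. Of 18 tested pDC transcription factors 1 passed the 2-fold rule, beside 2.58% of all genes higher and 1.65% lower. This was Klf4 (341 and 148 CPM, 1.20, 0.82 to 1.58). Id2 and Id3, inhibitors of E proteins, were higher in TG at 245 and 167 (0.55, 0.13 to 0.96) and at 156 and 83.7 (0.90, 0.35 to 1.44). The ratio of Id2 was -0.40 (-1.61 to 0.65) in the pDC without T, B or monocyte genes and 0.07 (-0.66 to 0.75) in those without NK cell markers. Id3 passed the 2-fold rule without doublets (1.13), in the pDC without T, B or monocyte genes (1.80, 0.65 to 2.92) and in those without NK cell markers (1.13). In mature B cells Id2 was lower in TG (-0.81, -1.005 to -0.62).

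Of 33 tested genes of nucleic acid sensing 0 passed the 2-fold rule, beside 2.58% of all genes higher and 1.65% lower, with a median of 0.05. In the pDC without T, B or monocyte genes 2 of 29 passed it, and in those without NK cell markers 1 of 31. By interval, beside 5.47% of all genes higher and 4.15% lower, 2 were higher in TG, Irf7 and the kinase Irak4 (0.90, 0.11 to 1.65, and 1.40, -0.09 to 2.81 in the pDC without T, B or monocyte genes), and 1 was lower, Unc93b1. Tlr7, the sensor of single-stranded RNA, stood at 135 and 171 CPM (-0.34, -0.89 to 0.17), with a ratio of -0.69 (-1.44 to -0.01) in the pDC without NK cell markers. Tlr9, the sensor of DNA, had 1 and 19 UMIs (-2.35, -7.72 to 0.31), so a difference in it was not detectable at this depth. Unc93b1, which carries these receptors to endosomes, was lower in TG at 885 and 1157 (-0.39, -0.59 to -0.19). It was lower in Mono (-0.77) and Macro cells (-0.45) as well. Pld4, an exonuclease of endosomes, was at 996 and 966 (0.04, -0.15 to 0.24). Irf7, the factor that drives interferon genes downstream of these receptors, was higher in TG at 359 and 212 (0.76, 0.41 to 1.105), with a UMI in 76.1% and 52.5% of cells and in 28.3% and 16.9% at equal depth. Its ratio was 0.13 (-0.52 to 0.74) in the pDC without T, B or monocyte genes and 0.09 (-0.42 to 0.57) in those without NK cell markers, and it was higher in TG Mono (0.65) and Macro cells (0.72) too.

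Interferon transcripts were hardly detected at this depth. Of 20 type I and III interferon genes listed 7 were in the files. TG pDC held no UMI of them and WT pDC held 2 of Ifna2 and 1 of Ifnl2, or 2.85 CPM in all. Macro cells summed to 4.89 and 8.56 CPM of these genes, WT mature B cells to 0.278, and Mono cells to 0. Among the cytokines and chemokines 12 of 24 genes had enough UMIs, and their median log2 ratio in pDC was -0.63, beside 0.05 over all genes, -0.09 in mature B cells, -0.18 in Mono cells and -0.18 in Macro cells. By interval 6 of 12 were lower in TG and 0 higher, beside 4.15% and 5.47% of all genes, and 3 of the 6 passed the 2-fold rule, beside 1.65%. The lower genes were 4 without doublets, 4 without cells that held NK cell markers, and 2 of 8 without cells that held T, B or monocyte genes. Ccl4, a chemokine that draws in T cells and monocytes, gave 782 and 1173 CPM (-0.58, -0.80 to -0.38), with a ratio of -0.18 (-0.67 to 0.28) at equal depth. Ccl3, a related chemokine, gave 117 and 289 (-1.30, -1.87 to -0.78), with -0.86 (-1.64 to -0.16) in the pDC without T, B or monocyte genes, and it was lower in TG mature B (-0.86) and Mono cells (-1.63). Tnf gave 164 and 256 (-0.65, -1.13 to -0.19), with an interval of -1.61 to 0.01 in the pDC without T, B or monocyte genes. Ccl5, which T and NK cells also make, gave 345 and 647 (-0.91, -1.23 to -0.60), but its ratio was 0.16 (-0.19 to 0.50) without doublets, 0.34 (-0.33 to 0.96) without cells that held T, B or monocyte genes and -0.18 (-0.78 to 0.37) without cells that held NK cell markers. Of the other NK cell markers in pDC, Nkg7 was lower in TG (-1.47, -2.51 to -0.58) and Gzma higher (0.98, 0.28 to 1.65). Without cells that held NK cell markers Ccl3 was at -1.29 (-1.99 to -0.66) and Ccl4 at -0.85 (-1.13 to -0.58). In mature B cells the intervals of Ccl4 (-0.11, -0.37 to 0.16) and Tnf (0.43, -0.01 to 0.87) held 0, and Ccl5 was higher in TG Macro cells at 1665 and 492 CPM. Il12a had 1 and 36 UMIs (-3.27, -8.61 to -0.70), and its interval held 0 in the pDC without T, B or monocyte genes (-7.71 to 0.31). Il1b had 0 and 42 UMIs, but the WT UMIs lay in 2.74% of the cells while Mono cells held 8461 and 9599 CPM, so its level in pDC rests on few cells.

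The median of the interferon-stimulated list in pDC was near that of all genes (0.05). Bst2 and Irf7, which were higher in TG, were on other lists, as were the MHC class I genes that were higher in TG. Of 35 tested interferon-stimulated genes 3 were higher in TG by interval (Oas1a, Irf9 and Epsti1) and 1 lower (Usp18), beside 5.47% and 4.15% of all genes, with a median of 0.08, beside 0.23 in mature B cells, 0.68 in Mono cells and 0.47 in Macro cells. Of 30 tested in the pDC without T, B or monocyte genes 0 were higher and 1 was lower. The genes of the IFN-γ response had a median of 0.19 over 23 genes in pDC (0.09 without the 0.5 UMIs added), against 0.70, 1.14 and 1.07 in the other 3 classes. In pDC it was 0.41 without cells that held T, B or monocyte genes and 0.29 without those that held NK cell markers. At equal depth it was 0.27, and without doublets 0.10. By interval 2 were higher, Igtp and Iigp1, and 2 lower, Irf1 and Gbp7, beside 5.47% and 4.15% of all genes. Igtp passed the 2-fold rule as higher and Gbp7 as lower, beside 2.58% and 1.65% of all genes. Irf1, a factor induced by IFN-γ, was lower in TG pDC at 501 and 733 CPM (-0.55, -0.82 to -0.29), and higher in TG mature B (0.53, 0.41 to 0.65) and Mono cells (1.46, 1.25 to 1.67). Iigp1, an immunity-related GTPase, had 19 and 38 UMIs in pDC (0.90, 0.03 to 1.73, with 0.77, -0.12 to 1.61 without doublets and 1.56, 0.27 to 2.77 in the pDC without NK cell markers), and was higher in TG by 3.32 (2.55 to 4.19) in mature B cells. Gbp7, a guanylate-binding protein, had 1 and 33 UMIs in pDC (-3.14, -8.49 to -0.56, with -2.52, -7.90 to 0.14 without doublets and -0.07 at equal depth) and was higher in TG mature B cells (1.08, 0.85 to 1.32). Beside these values, the receptor chain Ifngr1 had 13 and 35 UMIs in pDC, or 46.2 and 33.3 CPM, and 84.5 and 99.3 CPM in mature B cells.

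Many antigen presentation genes were higher in TG pDC. Of 20 genes of MHC class I, 9 were higher in TG by interval and 0 lower (5 and 1 in the pDC without T, B or monocyte genes), beside 5.47% and 4.15% of all genes, with a median of 0.30, beside 0.47, 0.72 and 0.53 in mature B, Mono and Macro cells. B2m stood at 5355 and 4017 CPM (0.41, 0.33 to 0.50), H2-K1 at 3527 and 2334 (0.60, 0.49 to 0.70) and H2-Q7, a nonclassical class I gene, at 1280 and 720 (0.83, 0.65 to 1.01). H2-Q6 passed the 2-fold rule (1.099, 0.79 to 1.40), though not in the pDC without T, B or monocyte genes (0.88), and reads of these closely related H2 genes can be split between copies. Psmb9, a subunit of the immunoproteasome, was at 213 and 156 in pDC (0.45, 0.00 to 0.89, and 0.33, -0.13 to 0.77 without doublets) and at a ratio of 1.47 (1.28 to 1.66) in mature B cells.

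Of 16 tested genes of MHC class II and costimulation 5 were higher in TG and 1 lower, beside 5.47% and 4.15% of all genes. The median was 0.33 (0.09 in the pDC without NK cell markers), beside 0.21 in mature B, 0.67 in Mono and -0.13 in Macro cells. H2-Aa (chr17:34282744-34287823, - strand) stood at 3161 and 2097 CPM (0.59, 0.48 to 0.70). Its quartiles over cells were 1958, 3273 and 4329 in TG and 641, 1699 and 3245 in WT, so the TG median lay above the upper WT quartile. H2-Ab1 (0.61, 0.50 to 0.73), H2-Eb1 (0.58, 0.39 to 0.76) and the invariant chain Cd74 (0.31, 0.24 to 0.39) were higher as well. In Macro cells H2-Aa was lower in TG (-0.13, -0.19 to -0.07) and in mature B cells it was higher (0.45, 0.42 to 0.48). The lysosomal protease Ctss was lower in TG pDC (-0.22, -0.40 to -0.04). Costimulatory genes were barely read, with 0 and 0 UMIs of Cd80, 2 and 17 of Cd86 and 2 and 4 of Cd40.

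**Figure D5:**
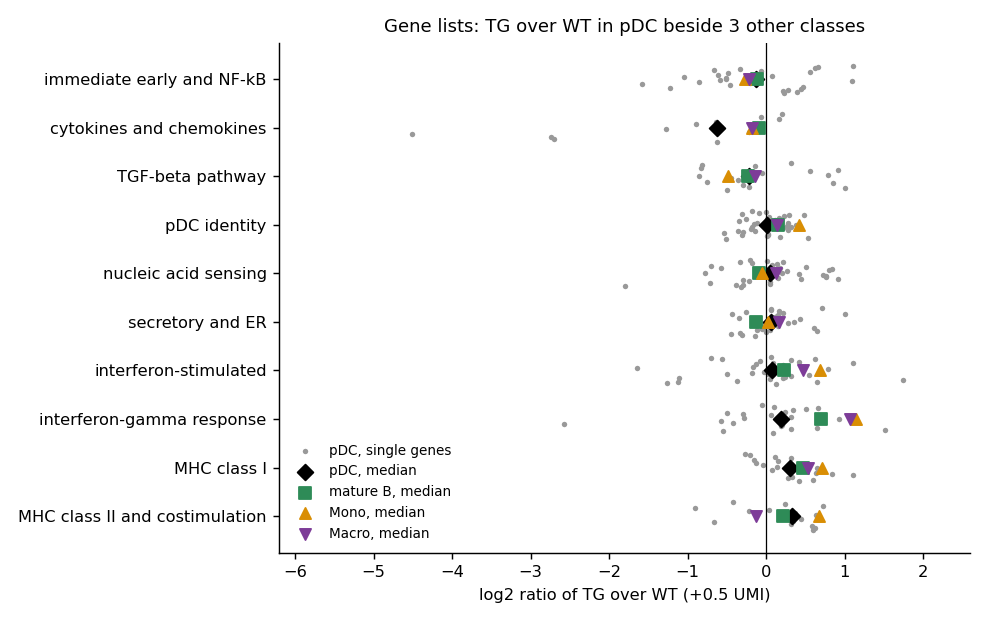
Log2 ratio of TG over WT with 0.5 UMIs added (x axis) for 10 gene lists (y axis), with grey points for single genes in pDC and larger symbols for the list medians in pDC, mature B, Mono and Macro cells. The pDC median lies below those of the other classes for cytokines and chemokines (-0.63) and near 0 for interferon-stimulated genes (0.08) and the IFN-γ response (0.19), where the Mono medians are 0.68 and 1.14.

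Among receptors, the transferrin receptor and the mouse counterpart of the transgene were higher in TG pDC. Tfrc, which imports iron and is the transcript of CD71, had 150 and 251 UMIs in pDC, or 533 and 239 CPM (1.16, 0.86 to 1.46). A UMI was present in 91.3% of TG and 58.9% of WT cells, and in 37.0% and 23.7% at equal depth, where the ratio was 0.56 (-0.22 to 1.28). In mature B cells Tfrc was lower in TG at 43.7 and 68.4 (-0.65, -0.95 to -0.35). Tgfbr2 (chr9:116084293-116175360, - strand), the mouse gene of the receptor whose dominant negative human form the transgene encodes, stood at 196 and 97.97 CPM in pDC (1.00, 0.50 to 1.48), with 55 and 103 UMIs, and at a ratio of 1.13 without doublets and 1.29 (0.49 to 2.06) in the pDC without T, B or monocyte genes. It was found in 58.7% and 32.9% of the cells, and in 15.2% and 10.96% at equal depth, where the ratio was 0.36 (-1.09 to 1.60). Tgfbr2 was at 411 and 148 in NKT cells, 362 and 142 in NK cells, 296 and 153 in CD8αβ T cells and 377 and 221 in CD4 T cells, whereas mature B cells held 218 and 231 (-0.09, -0.23 to 0.06). Cd4, whose promoter drives the transgene, was at 658 and 494 in pDC (0.41, 0.16 to 0.66) and at 25.3 and 37.0 in mature B cells. The Cd4 ratio was -0.10 (-0.77 to 0.51) at equal depth, 0.13 (-0.25 to 0.49) in the pDC without T, B or monocyte genes and 0.23 (-0.08 to 0.53) in those without NK cell markers. Whether transcripts of the transgene were counted under Tgfbr2 or Cd4 was not tested.

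Of 17 tested genes of the TGF-β pathway 0 passed the 2-fold rule, beside 2.58% of all genes higher and 1.65% lower. Without doublets 2 passed it, as did 2 in the pDC without T, B or monocyte genes. In those without NK cell markers 1 passed it as higher and 2 as lower. The median was -0.22, beside -0.23 in mature B, -0.48 in Mono and -0.15 in Macro cells. By interval 3 were higher in TG pDC, Tgfbr2, Id2 and Id3, whose values are given above, and 3 were lower, beside 5.47% and 4.15% of all genes. At equal depth 11 genes had enough UMIs and their median was 0.33. The effector Smad4 (-0.80, -1.66 to -0.03) and the repressors Skil (-0.89, -1.67 to -0.19) and Tgif1 (-0.88, -1.80 to -0.06) were lower in TG pDC, and each was lower in TG mature B cells too, at -0.48, -0.37 and -0.43. At equal depth the ratios in pDC were 0.34 for Smad4, 0.38 for Tgif1 and -1.50 for Skil. They were -0.95, -1.44 and -0.62 in the pDC without T, B or monocyte genes, and each interval held 0. In the pDC without NK cell markers Smad4 (-1.13) and Tgif1 (-1.51) passed the 2-fold rule. Smad7, the inhibitor induced by TGF-β, had 23 and 112 UMIs (-0.38, -1.097 to 0.28). Among 35 tested surface receptors 1 passed the 2-fold rule, beside 2.58% of all genes, and it was Ifnar1, a chain of the type I interferon receptor, at 174 and 76.1 CPM (1.20, 0.65 to 1.73), with an interval of -0.23 to 1.74 in the pDC without T, B or monocyte genes. Its partner Ifnar2 was at 277 and 234 (0.25, -0.14 to 0.62). Flt3, whose ligand sustains pDC, was at 139 and 142 (-0.03, -0.58 to 0.49).

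Among trafficking genes, of which 21 were tested, Cxcr4, the receptor that holds cells in marrow, was lower in TG at 153 and 294 CPM (-0.94, -1.44 to -0.48), and so was Cd69, which blocks exit from tissue (-0.67, -1.02 to -0.33). The ratios in the pDC without T, B or monocyte genes were -0.58 (-1.24 to 0.03) for Cxcr4 and -0.22 (-0.70 to 0.24) for Cd69. Both were also lower in TG mature B cells, at -0.62 and -0.33. Cxcr3, a receptor of chemokines induced by IFN-γ, was at 142 and 125 (0.19, -0.36 to 0.71).

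The 26 immediate early and NF-κB genes differed in both directions, with 8 higher and 10 lower in TG by interval, beside 5.47% and 4.15% of all genes, and 2 and 3 past the 2-fold rule, beside 2.58% and 1.65%. With the pDC that held T, B or monocyte genes removed, 5 were higher and 5 lower. Egr1 stood at 363 and 855 CPM (-1.24, -1.55 to -0.94), Nfkbiz at 334 and 695 (-1.06, -1.38 to -0.75) and Ier3 had 9 and 106 UMIs (-1.66, -2.82 to -0.68), with an interval of -2.90 to 0.11 in the pDC without T, B or monocyte genes. The inhibitors Nfkbia (-0.52, -0.73 to -0.31) and Zfp36, which destabilises cytokine mRNA (-0.51, -0.62 to -0.41), were lower as well. Dusp1, a phosphatase of MAP kinases, was higher at 796 and 375 (1.09, 0.84 to 1.33), with Klf6 (0.55, 0.36 to 0.75) and Jund (0.44, 0.36 to 0.52). Without the pDC that held NK cell markers the ratios of Dusp1 (0.92) and Nfkbiz (-0.97) stayed clear of 0 but missed 2-fold. Egr1 was lower in TG Mono (-1.13) and Macro cells (-0.88) too.

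The secretory apparatus, which is large in pDC, had a median of 0.06 over 33 genes. Past the 2-fold rule were 0, beside 2.58% of all genes higher and 1.65% lower. By interval 4 were higher, Sec61a1, Ssr2, Pdia6 and Ern1, and 2 lower, Hspa5 and Herpud1, beside 5.47% and 4.15% of all genes. Xbp1, the factor of secretory cells, stood at 612 and 679 CPM (-0.15, -0.40 to 0.09), and was at 78.8 and 66.7 in mature B cells. The chaperone Hspa5 (-0.31, -0.47 to -0.16) and Herpud1 (-0.45, -0.74 to -0.17) were lower in TG, and Ern1, the sensor that splices Xbp1, was higher with 27 and 51 UMIs (0.98, 0.25 to 1.69). Its ratio passed 2-fold without doublets (1.01), in the pDC without T, B or monocyte genes (1.46, 0.45 to 2.45) and in those without NK cell markers (1.16). Of 8 tested cell cycle genes 0 were higher or lower by interval, beside 5.47% of all genes higher and 4.15% lower.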

How the data were processed

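CD45+ liver cells were captured with BD Rhapsody, and the reads were aligned by the authors to mm10 with STAR in the BD Rhapsody pipeline (version 1.9 per the file headers). The deposited library files hold UMI counts per cell for all transcripts and 49 antibodies, and these counts of the named cells were used. The deposited cell table gives genotype, cell type name and cluster, which the authors made after joining the datasets in Seurat, and a mitochondrial percent per cell. Deposited antibody values are natural log centred ratios. The deposited normalised RNA table was not used. Strand use in counting is not given in the sources used here. No further filter on cells was applied.

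Counts were summed per genotype and class, scaled to counts per 1000000 UMIs (CPM) and given with exact Poisson intervals, ratios with exact conditional binomial intervals, shares with Clopper-Pearson and their differences with Newcombe intervals. A gene needed 10 UMIs in the compared profiles together to be tested. List medians used log2 ratios with 0.5 UMIs added. Named genes were the members of 28 gene lists, the 10 highest and 10 lowest ratios of TG over WT in pDC (at least 50 UMIs, UMIs in at least 10% of cells and under 50% of them in the top 3 cells of the higher library, direction kept under every scaling), the 15 genes highest and 5 lowest in pDC against both classes, and antibodies by difference of medians. Some items that the rule names are not reported here. Members and lists were chosen with earlier results of these data known. Gene positions are those of GENCODE for GRCm38 and promoters those of RefSeq. Doublets were called with Scrublet (scanpy 1.11.5, expected rate 5%) and kept in the main values. Alternatives were TMM scaling (edgeR 4.0.16, R 4.3.3), library totals that leave out ribosomal and mitochondrial transcripts, equal cell weight, other minimum counts, thinning to 1000 UMIs per cell, removal of doublets or of cells with at least 2 UMIs of T, B or monocyte genes or, chosen after the data were seen, of NK cell markers, and the authors' filtered counts. The calculations were tested on simulated data and used Python 3.11.15, numpy 2.4.6, scipy 1.17.1 and pandas 2.3.3.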

Additional observations from a re-analysis of the deposited data

Results flagged for a closer look

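Among members of the gene lists (507 genes) and the other genes named in the text, 11 had opposite orders in pDC and mature B cells. For these the interval of the log2 ratio of TG over WT lay on opposite sides of 0, and the difference between the classes was not tested. By interval alone 5.47% of all genes were higher and 4.15% lower in TG pDC, and 9.29% and 14.7% in TG mature B cells. Opposite pairs were not counted over all genes, so the 11 have no background to be read against. Higher in TG pDC and lower in TG mature B cells were Klf4 (1.20 and -0.50), Tfrc (1.16 and -0.65), Dusp1 (1.09 and -0.09), Id3 (0.90 and -0.31), Id2 (0.551 and -0.81), Cd4 (0.414 and -0.55) and Ly6c2 (0.261 and -0.36). Lower in TG pDC and higher in TG mature B cells were Gbp7 (-3.14 and 1.08), Usp18 (-1.17 and 1.32), Irf1 (-0.549 and 0.53) and Cybb (-0.257 and 0.27). In the pDC without T, B or monocyte genes the intervals of Cd4, Cybb, Gbp7, Id2, Ly6c2 and Usp18 held 0.

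Cells with the transcripts of pDC were also present among the cells that the authors did not name. A profile with at least 3 of 6 pDC transcripts was held by 105 of 5379 unnamed cells of the TG pool (1.95%, 1.60 to 2.36) and by 153 of 16829 unnamed cells of the WT pool (0.909%, 0.771 to 1.06). The same rule was met by 3 of 4601 other named cells of the TG pool (0.0652%) and by 10 of 7063 of the WT pool (0.142%), and by 46 of 46 and 217 of 219 named pDC. Siglech stood at 2825 and 3008 CPM in the unnamed cells that met it. The unnamed cells of a pool hold the other genotype of that pool and cells that the authors left out, which the cell table does not tell apart.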

How the results depend on the processing

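No paired analysis was possible because each genotype had 1 library, and for the same reason no replicate could be left out. The lower share of pDC in TG was at -6.16 points with cells not named as T, NKT or NK as the denominator and at -1.77 without doublets. A count of only the pDC with a Siglech UMI could not change the share, since every pDC held one. All these shares are of named cells. Among unnamed cells, whose genotype is not given, the order was the other way. The rule of 3 of 6 pDC transcripts was met by 1.95% in the TG pool and 0.909% in the WT pool. Counts of genes depended on the minimum and on depth. With a minimum of 50 UMIs 51 genes were at least 2-fold higher in TG pDC, 95 higher and 131 lower in mature B cells and 96 higher and 57 lower in Mono cells. Thinned to 1000 UMIs per cell, 76 were higher and 27 lower in pDC and 127 lower in Mono cells. Against Mono cells TMM scaling gave 442 genes higher and 815 lower in pDC, and Macro cells in place of Mono cells, an alternative added after the data were seen, gave 220 and 267. Several alternatives could hardly move a single gene ratio. Over all genes in pDC the median shift was 0 with other minimum counts and 0.001 with the filtered counts. It was -0.017 with TMM scaling and -0.010 with totals that leave out ribosomal and mitochondrial transcripts. Of 760 alternatives to single gene ratios in pDC, these included, 708 moved by less than counting error and 9 turned. With 0.5 UMIs added the 9 that turned were Cd4 (-0.0816), Fzr1 (-0.0707), Gbp7 (0.377), Runx2 (0.0465), Smad4 (0.467) and Tgif1 (0.535) at equal depth, Id2 (-0.334) and Ccl5 (0.353) without cells that held T, B or monocyte genes, and Ccl5 (0.168) without doublets. The median of each of 14 lists stayed within its spread in 126 of 126, but some medians changed sign all the same. That of the TGF-β pathway went from -0.22 to 0.33 at equal depth. Without cells that held T, B or monocyte genes, that of trafficking went from 0.11 to -0.11 and that of the cell cycle from 0.18 to -0.21. In that subset the medians of nucleic acid sensing, the secretory genes and pDC identity also changed sign, at smaller values. By difference of medians in place of shares, 9 of 65 antibody comparisons turned. In WT these were IgD (-0.117) and IgM (-0.0964) over Mono cells and CD45R (-0.172) over mature B cells. In TG they were IgD (-0.00521) and CD23 (-0.0338) over Mono cells and CD45R (-0.109), CD41 (-0.139), CD8b (-0.0392) and CD9 (-0.0366) over mature B cells. The causes were not tested. The TG pDC profile was limited in size, with 281228 UMIs from 46 cells against 1051294 from 219 in WT.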

Other observations

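Among the endothelial markers, Cdh5, the gene of VE-cadherin, was read mainly in pDC. It had 28 UMIs in TG and 174 in WT pDC, or 99.6 and 166 CPM (log2 ratio -0.73, -1.36 to -0.15, and -1.18, -2.36 to -0.19 in the pDC without T, B or monocyte genes), with a UMI in 34.8% and 50.7% of the cells and in 4.35% and 16.4% at equal depth. Mature B cells held 0.892 and 0 CPM, Mono cells 0 and 0 and Macro cells 1.63 and 0. Each other named class held at most 3 UMIs per library, and the highest level among them was 32.6 CPM, from 3 UMIs in WT Neu cells. Kdr, a receptor of VEGF, had 19 and 56 UMIs in pDC, or 67.6 and 53.3 CPM (0.34, -0.49 to 1.12), and 0 in mature B and Mono cells of both libraries. Stab2 and Lyve1, which mark the sinusoidal endothelium of liver, had no UMI in either pDC profile, and Clec4g was at 17.8 and 28.5.

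The chemokine receptor Ccr2, which brings cells out of marrow, was read in pDC at 156 and 214 CPM (-0.45, -0.95 to 0.02), below Macro cells (558 and 564) and above mature B cells (6.54 and 29.5).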
